A study of Mus musculus with 3 samples.

Results

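Among mouse embryonic stem cells held in the translation blocker cycloheximide for 6 h, the cells richest in Gadd45g transcripts were compared with the cells poorest in them. Gadd45g encodes a small stress and growth arrest protein. The cells were barcodes of the 6 h library with at least 15000 unique molecular identifiers (UMIs, which count captured RNA molecules) and 1 to 20% of UMIs from mitochondrial genes. The 2554 such cells were ranked by Gadd45g UMIs per 10000 UMIs, with ties broken by the larger total. The top 25% (Gadd45g-high cells) and the bottom 25% (Gadd45g-low cells) held 638 cells each, so 1276 cells were compared out of 6480 cells in the 3 libraries of the series. The upper middle and lower middle cells, 639 of each, were kept as a gradation between them. The ranking used Gadd45g itself, so its values describe the choice and are not a result.

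All 3 libraries came from the E14 line of 129/Ola background, an established stem cell line kept undifferentiated by serum and leukemia inhibitory factor (LIF). Cells were treated from 24 h after seeding with 250 µg/mL cycloheximide in 0.007% ethanol for 6 h or 3 h, or with ethanol alone for 6 h, then frozen before 10x Genomics 3' v3 barcoding. Each condition had 1 library, and cells of 1 library are not replicates. No test was therefore made, and the 95% intervals below are exact intervals that cover counting error only.

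Gadd45 proteins bind kinases and cell cycle proteins, among them the p38 and JNK activating kinase Map3k4, Cdk1 with cyclin B1, and the replication clamp Pcna. Their genes are switched on by stress, DNA damage and TGF-beta family signals, and their transcripts are short-lived. Cycloheximide stalls elongating ribosomes, which stabilises many short-lived transcripts and those degraded in step with translation, and it also removes short-lived repressor proteins.

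Sequencing depth was 127601369 UMIs for the control library, 115188502 for the 3 h library and 150987519 for the 6 h library. In that order 2187, 1739 and 2554 cells lay within the limits, with median totals of 43160, 51726 and 46200 UMIs. Of the barcodes with enough UMIs, 62, 1 and 8 fell under 1% mitochondrial UMIs and 0 exceeded 20%. Between 4 and 6 barcode sequences per library also occurred in another library. The stem cell markers were present throughout the compared cells. Pou5f1, the core pluripotency factor, was at 449 CPM (UMIs per 1000000 UMIs) in the Gadd45g-low and 468 CPM in the Gadd45g-high cells, and Sox2 was at 134 and 149 CPM.

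Gadd45g was almost absent without the drug and very uneven with it. In the control, 122 Gadd45g UMIs gave 1.09 CPM (0.909 to 1.31) and 2113 of 2187 cells had none. At 3 h the level was 87.2 CPM with 673 of 1739 cells at 0, and at 6 h it was 292 CPM (289 to 295) with 273 of 2554 cells at 0. Single cells at 6 h ranged from 0 to 226 Gadd45g UMIs with a median of 9. After each cell was thinned to 15000 UMIs, the variance was 7.40 times the mean at 6 h and 7.95 times at 3 h, where counting error alone gives a value near 1. Free RNA, read in barcodes with 10 to 100 UMIs, held Gadd45g at 246 CPM at 6 h.

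**Figure D1:**
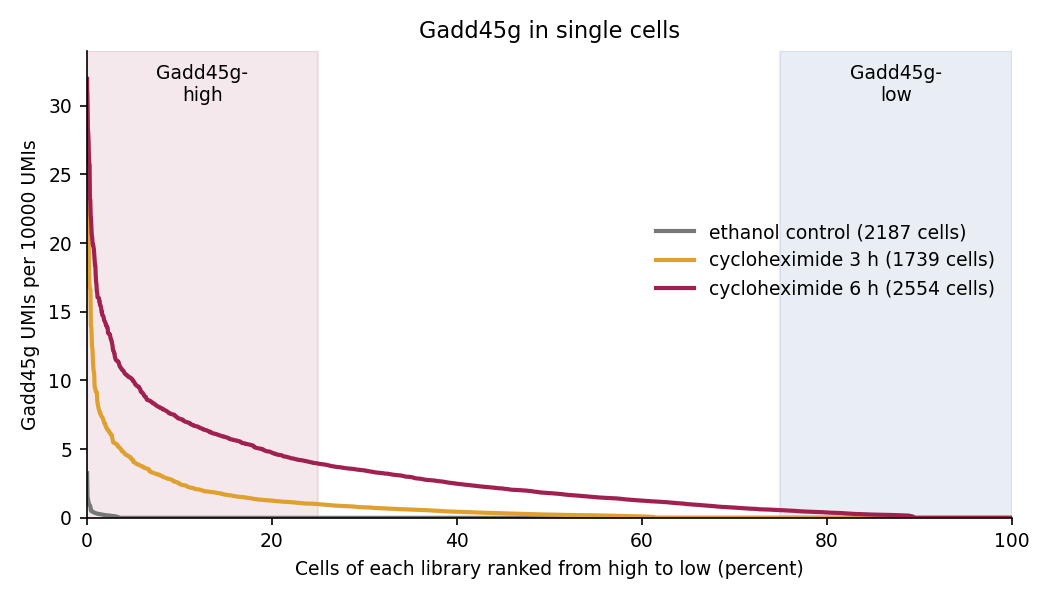
Gadd45g UMIs per 10000 UMIs (y axis) in each cell, with the cells of each library ranked from high to low and placed by percent of the library (x axis); 1 line per library. The 6 h line falls through 3.96 at the edge of the Gadd45g-high cells to 0, the 3 h line lies below it, and the control line is near 0.

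The edges of the groups were not gaps. The last cell among the Gadd45g-high cells had 3.96 Gadd45g UMIs per 10000 and the first outside had 3.94. At the other end the last cell outside the Gadd45g-low cells had 0.561 and the next, inside, had 0.560. From the Gadd45g-low through the lower middle and upper middle to the Gadd45g-high cells, the order used for every run of 4 values below, median Gadd45g counts per cell were 1, 5, 14 and 33 UMIs and Gadd45g levels were 20.8, 116, 278 and 740.4 CPM. With every cell thinned to 15000 UMIs, 24.1%, 83.7%, 98.6% and 100% of cells kept a Gadd45g UMI, against 1.46% of control cells at the same depth.

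The groups also differed in other cell measures, of which the total enters the ranking as its divisor and tie-break. Median totals were 43598, 49693, 51732 and 42840 UMIs, so the compared ends had like medians and the middle had larger cells. The Gadd45g-high cells nevertheless included more very large ones, with 66 of 638 (10.3%) above 2 times the library median against 19 of 638 (2.98%) of the Gadd45g-low cells. Doublets were not removed, and their part in the results was not tested. Cells scored as G2M phase from thinned counts were 12 of 638 (1.88%) at the low end, 41 and 46 of 639 in the middle and 76 of 638 (11.9%) at the high end. Median mitochondrial shares were 2.97% at the low and 2.81% at the high end.

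Of 7773 genes other than Gadd45g with at least 10 CPM at 6 h, 565 were higher in the Gadd45g-high cells (7.27% of those compared) and 192 were lower (2.47%). A gene was counted as higher or lower where its summed UMIs, as CPM, were at least 25% higher or 20% lower than in the Gadd45g-low cells, with an interval excluding equality. At 1.5-fold the counts were 139 (1.79%) and 55 (0.708%). Most genes differed little, since the log2 ratio of Gadd45g-high over Gadd45g-low cells had a median of 0.03 and its 5th and 95th percentiles were -0.24 and 0.38. The share of higher genes among those counted was 74.6% on the CPM scale, 64.1% with TMM factors (which shift every ratio by -0.037), 66.9% with all cells weighted equally and 97.0% in UMIs per cell. The last scale moved the median of all genes to 0.23, because the mean Gadd45g-high cell held more UMIs. Directions below are on the CPM scale, relative to the bulk of genes.

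The differences were graded along the ranking rather than limited to its ends. In the cells between the compared ends, 522 of the 565 higher genes (92.4%) were also above 0 in the ratio of upper middle over lower middle cells, where 55.3% of all genes were. Of the 192 lower genes, 177 (92.2%) were below 0 there, against 44.7% of all genes. Levels increased in order over the 4 groups for 463 of the 565 (81.9%), against 20.2% of all genes, and decreased in order for 158 of the 192 (82.3%), against 10.7%. The counts over 4 groups share the compared cells with the choice of genes, whereas the middle groups hold none of those cells.

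Of the other Gadd45 genes, Gadd45b followed Gadd45g and Gadd45a hardly did. Gadd45b (ENSMUSG00000015312, chr10:80930073-80932204, plus strand of GRCm38) was at 96.4, 116, 154 and 229 CPM, a 2.38-fold difference between the ends, and at 12.7 CPM in the control. Gadd45a was at 139, 128, 139 and 148 CPM, a log2 ratio of 0.092 (0.032 to 0.15), and at 38.9 CPM in the control. Gadd45b was therefore higher at each step of the ranking, while Gadd45a stayed in a narrow band well above the control in every group. Gadd45b UMIs were found in 63.0% of thinned Gadd45g-low cells and in 85.1% of thinned Gadd45g-high cells, against 16.7% of control cells. Free RNA held Gadd45b at 90.5 CPM at 6 h, close to the level of the Gadd45g-low cells, and at 11.1 CPM in the control. With no cell type at hand that lacks the gene, these shares count cells with a UMI, not cells expressing Gadd45b.

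Cdkn1a, the cyclin-dependent kinase inhibitor p21 and the remaining marker proposed for these cells, did not follow Gadd45g at 6 h. Its levels were 66.2, 58.9, 51.6 and 66.0 CPM, lowest in the upper middle cells, with a log2 ratio of -0.0027 (-0.091 to 0.086) between the ends. The cells at the high end can thus be called high in Gadd45g and Gadd45b, but not in Cdkn1a. Cdkn1c, the related inhibitor p57, was instead at 103, 133, 181 and 285 CPM, a log2 ratio of 1.46 (1.41 to 1.52), with 146 CPM in the control.

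Among 14 binding partners and downstream kinases of Gadd45 proteins, 2 were higher and 0 lower, against 7.27% and 2.47% of all genes. Their median was 0.092. Ccnb1, the cyclin B1 gene, was higher by 0.50 and Map2k3, a p38 kinase kinase, by 0.34. Mapk14 (p38 alpha) was at 43.9 CPM in Gadd45g-low and 43.5 CPM in Gadd45g-high cells, and Pcna was at 322 and 272 CPM, a log2 ratio of -0.24 that stayed inside the 20% limit.

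Among genes with at least 10 CPM, the 4 with the highest ratios after Gadd45g were Id1, Id3, R3hdml and Id2, in that order. Some genes under that level had higher ratios. Id proteins bind E proteins and keep them off DNA, and in serum-grown stem cells their genes are classical targets of BMP signalling through SMAD1 and SMAD5. Id1 (ENSMUSG00000042745, chr2:152736251-152737410) was at 93.3 CPM (89.9 to 96.9) at the low end, 169 and 265 CPM in the middle and 473 CPM (466 to 481) at the high end, a 5.07-fold difference and a log2 ratio of 2.34 (2.28 to 2.40). The control, at 242 CPM, lay between the middle groups, so Id1 was below the control at one end of the ranking and above it at the other. A thinned cell held an Id1 UMI in 45.8%, 63.7%, 78.6% and 89.3% of cases, and in 85.5% of control cells, with Id1 in free RNA at 231 CPM at 6 h.

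Id3 (chr4:136143497-136145755) was at 81.8, 130.5, 193 and 323 CPM, a log2 ratio of 1.98 (1.92 to 2.05). Id2 (chr12:25093799-25097140) was at 88.4, 133, 171 and 256 CPM, a log2 ratio of 1.53 (1.47 to 1.60). Unlike Id1, both were above the control level in every group, which was 46.1 CPM for Id3 and 32.2 CPM for Id2. R3hdml, a little-studied gene, went from 6.13 to 22.7 CPM, a log2 ratio of 1.88 (1.65 to 2.13).

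A list of 14 BMP and SMAD1/5 target genes was drawn up after the values of the Id genes had been seen. It contains the 3 Id genes and so restates them in part. With no floor 13 of its 14 genes were higher and 0 lower, against 8.60% and 3.56% of all genes. At or above 10 CPM were 6 of its genes, of which 5 were higher and 0 lower, against 7.27% and 2.47% of all genes. Besides the Id genes these were Dusp9, a phosphatase that restrains ERK, at 0.97, and Smad7, an inhibitor of the receptor pathway, at 0.93. Bambi, a decoy receptor, was at 39.4 CPM in Gadd45g-low and 38.7 CPM in Gadd45g-high cells. Of a list of Nodal and SMAD2/3 targets drawn up in the same way, 6 of 10 reached 10 CPM. Of these 4 were higher and 0 lower, with a median of 0.53. The higher ones were led by Skil, a SMAD corepressor, at 39.6 and 85.1 CPM at the low and high ends. With no floor 7 of the 10 were higher and 0 lower.

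**Figure D2:**
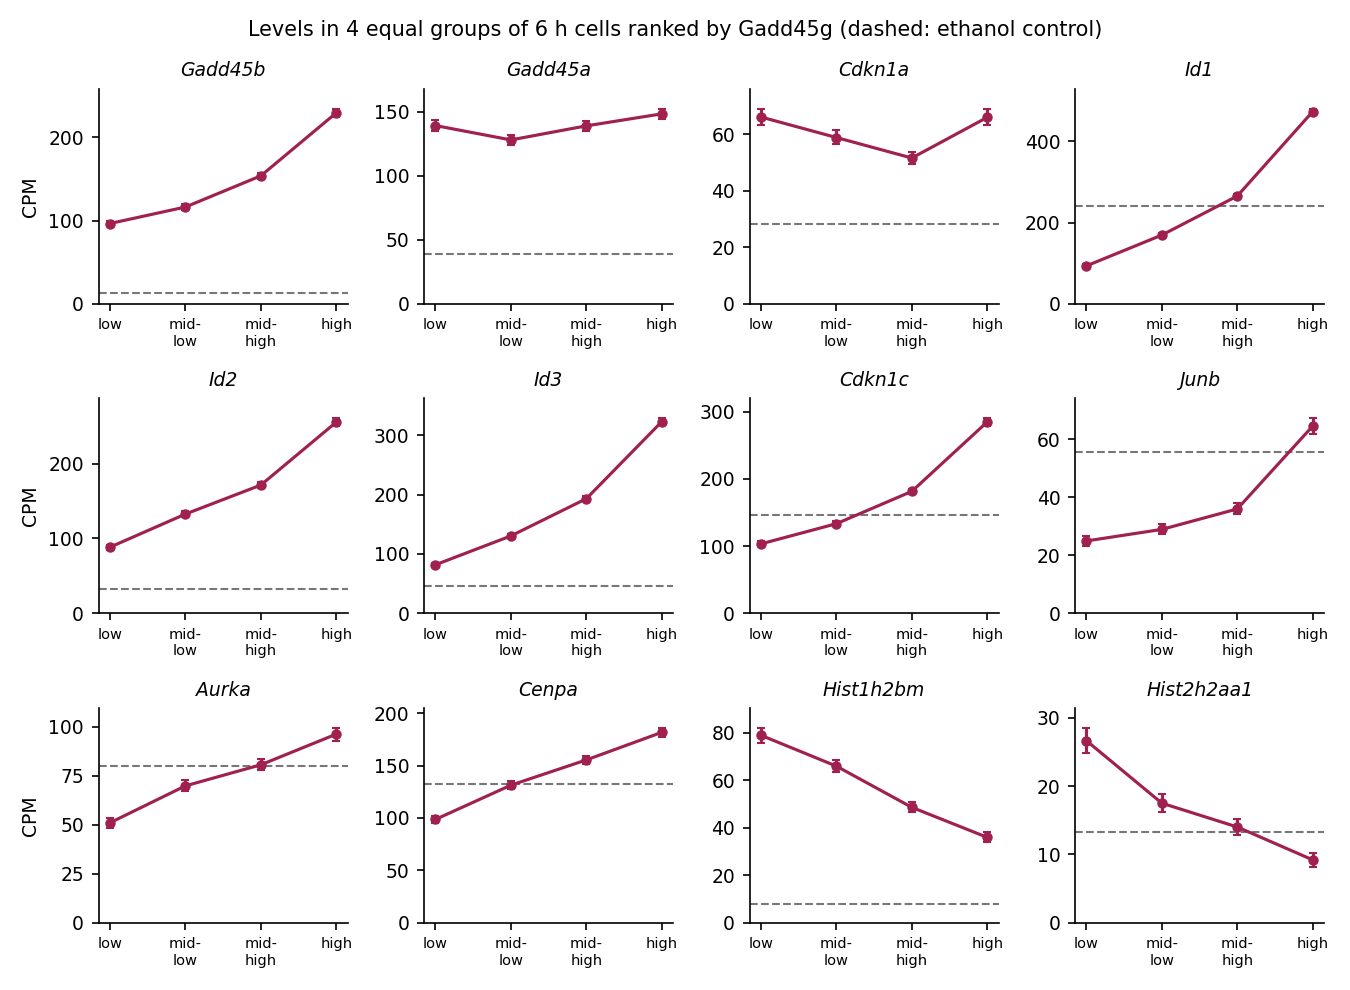
Levels in CPM (y axis, from 0 in each panel) of single genes in the 4 groups of 6 h cells ranked by Gadd45g (x axis, low to high); points are summed UMIs of a group, bars are exact 95% counting intervals and the dashed line is the control. Id1 crosses the control level between the middle groups, Id3, Id2 and Gadd45b lie above it throughout, and Hist1h2bm falls from 79.0 to 36.0 CPM.

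Promoter sequence is shown for Gadd45g, for Gadd45b, its family member that varied with it, and for Id2, an Id gene that varied with both. The sequences are the 250 bases before the RefSeq start site (GRCm38.p6), 5' to 3' on the strand of the gene, with motif matches in capitals. Capitals mark the CCAAT box (CCAAT), the TATA box (TATAAA) and the GC-rich core bound by SMAD1 and SMAD5 (GGCGCC), searched on both strands. Among them ATTGG is the CCAAT box read on the opposite strand.
Gadd45g, chr13:51846425-51846674, plus strand: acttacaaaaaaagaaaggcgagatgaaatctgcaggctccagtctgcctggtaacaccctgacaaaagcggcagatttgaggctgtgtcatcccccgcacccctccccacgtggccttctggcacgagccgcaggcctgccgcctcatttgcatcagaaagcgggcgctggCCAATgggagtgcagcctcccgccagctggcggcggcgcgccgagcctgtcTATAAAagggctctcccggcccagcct
Gadd45b, chr10:80929841-80930090, plus strand: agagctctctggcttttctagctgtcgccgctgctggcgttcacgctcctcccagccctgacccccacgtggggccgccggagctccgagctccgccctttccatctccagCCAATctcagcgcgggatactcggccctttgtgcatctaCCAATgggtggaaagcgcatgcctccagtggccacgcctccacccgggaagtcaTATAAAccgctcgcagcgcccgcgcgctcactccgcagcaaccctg
Id2, chr12:25096093-25096342, minus strand: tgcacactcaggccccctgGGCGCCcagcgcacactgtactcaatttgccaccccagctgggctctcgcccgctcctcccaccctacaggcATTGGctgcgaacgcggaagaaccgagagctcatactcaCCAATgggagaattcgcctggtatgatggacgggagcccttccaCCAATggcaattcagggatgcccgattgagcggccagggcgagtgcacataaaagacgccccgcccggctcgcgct

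Both Gadd45 promoters held a TATA box and at least 1 CCAAT box. The Id2 promoter held 3 CCAAT boxes, 1 GC-rich core and no exact TATAAA, the only form of the TATA box searched. The TATA box began 27 bases before the start site in Gadd45g and 46 bases before it in Gadd45b. Over all 32851 RefSeq windows of 300 bases (250 before to 50 after a start site), the TATA box occurred in 13.6%, the CCAAT box in 37.4% and the GC-rich core in 11.9%. The cyclic AMP element TGACGTCA (1.79% of windows) and the AP-1 site TGANTCA (7.81%) were in none of the windows of Gadd45g, Gadd45b, Id2 and Id3. The GC-rich core was in 26.8% of the 448 higher genes with a window, in 27.0% of the 115 lower genes and in 25.9% of the 6216 compared genes. Its share was thus alike in the 3 sets.

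Immediate early genes, which respond to growth factors and stress without new protein synthesis, were higher or level in the Gadd45g-high cells. Of 39 on the list, 17 reached 10 CPM. Of these 9 were higher and 0 lower, against 7.27% and 2.47% of all genes. Their median was 0.46, against 0.03 over all genes. Junb, an AP-1 subunit, was at 24.9, 28.9, 35.9 and 64.5 CPM, a 2.59-fold difference and a log2 ratio of 1.37. The AP-1 subunit Jun was at 23.4, 24.6, 30.3 and 47.9 CPM, a log2 ratio of 1.03. Both climbed mainly between the upper middle and the Gadd45g-high cells, and Junb passed its control level of 55.6 CPM only there. Ier5l was at 1.27, and Dusp1, a phosphatase of stress kinases, was at 11.7 and 12.3 CPM at the low and high ends.

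Targets of LIF and STAT3 went both ways on the CPM scale. Of 12 with at least 10 CPM, 4 were higher and 4 lower, against 7.27% and 2.47% of all genes. Higher were Junb, the feedback inhibitor Socs3 at 1.06, the kinase Pim3 at 0.73 and Bcl3 at 0.71. Lower were the LIF receptor Lifr at -0.41 and the naive transcription factors Klf4 at -0.38, Klf5 at -0.36 and Tfcp2l1 at -0.33. The other 4, among them Stat3 at -0.23, Pim1 at 0.21 and Gbx2 at 0.23, were neither. In UMIs per cell 6 of the 12 were higher and 0 lower, against 27.8% and 0.849% of all genes. With the ranking cut at its middle 4 were higher and 0 lower, against 2.43% and 0.888% of all genes.

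Pluripotency genes also went both ways on the CPM scale. Of 22, 3 were higher and 3 lower, against 7.27% and 2.47% of all genes, with a median of 0.063. In UMIs per cell 10 were higher, against 27.8% of all genes, and 0 lower. Nanog was at 112, 140, 158 and 166 CPM, a log2 ratio of 0.57 (0.51 to 0.63), followed by Tbx3 at 0.48 and the RNA-binding protein Lin28a at 0.47. The lower members were Klf4, Klf5 and Tfcp2l1 again. Of 25 formative and lineage genes 8 reached 10 CPM and 4 were higher, the 3 Id genes and Nes, a neural progenitor filament gene, at 0.53. With no floor, which adds 17 genes under 10 CPM, 20 of the 25 were higher and 0 lower. The shares of all genes with no floor were 8.60% higher and 3.56% lower.

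Targets of p53 differed individually. Of 24, 4 were higher and 2 lower, against 7.27% and 2.47% of all genes. Their median was 0.11, and 19 were above 0, against 58.4% of all genes. The kinase gene Plk3 was at 10.3, 14.9, 18.5 and 24.6 CPM, a log2 ratio of 1.26, Perp was at 0.58, Polk at 0.45 and Phlda3 at 0.35. The lower ones were Ei24 at -0.45 and Bbc3 (Puma) at -0.33. Mdm2, the ubiquitin ligase of p53, was at 78.4 and 83.3 CPM and Bax at 587 and 593 CPM at the low and high ends. Of 11 Bcl2 family genes with at least 10 CPM, 1 was higher and 1 lower, with a median of 0.17. These were the antiapoptotic gene Bcl2l1, higher by 0.65, and Bbc3.

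Other genes among the 12 with the highest ratios at or above 10 CPM encode receptors and regulators. They were the retinoic acid receptor gene Rara at 1.30, the Wnt receptor gene Fzd2 at 1.27 and the FGF receptor gene Fgfr2, whose ratio was 2.37-fold. Fgfr2 was at 1.01 CPM in the control and went from 9.31 CPM at the low to 22.1 CPM at the high end. Its level at the low end was therefore already above the control.

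Replication-dependent histone genes, transcribed in S phase and degraded when DNA synthesis stops, formed the most uniform group on the lower side. Of 67 genes 40 reached 10 CPM, of which 38 were lower and 0 higher, against 2.47% and 7.27% of all genes. Their median was -0.91. They made up 38 of the 192 lower genes. Their summed level was 9150, 7737, 6153 and 5021 CPM, against 2754 CPM in the control. All groups were thus above the control, and the Gadd45g-high cells were nearest to it. Hist1h2bm was at 79.0, 66.0, 48.7 and 36.0 CPM, a log2 ratio of -1.13 (-1.24 to -1.03), with 8.07 CPM in the control. Hist2h2aa1 had the lowest ratio of all genes with at least 10 CPM, at -1.53 (-1.73 to -1.34), with 26.6 and 9.20 CPM. The exceptions were Hist2h3c2 at 0.11 and Hist1h4i at 0.054. Near-identical histone genes can share reads, so single histone values are uncertain.

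Noncoding genes were also among the 12 lowest ratios at or above 10 CPM. Sox2ot, a transcript overlapping Sox2 (the annotation places it at chr3:34104270-34682619), was at 17.5, 10.4, 8.95 and 7.25 CPM, a log2 ratio of -1.27. Gm42743 was at -1.12 and Gm45184 at -1.07. Gm42743 lies at chr3:96269721-96279001, in the histone gene cluster that also holds Hist2h2aa1 at chr3:96245497-96246082, and strand use in the counting is not given in the sources used here.

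Most genes on the phase lists were counted as neither higher nor lower, and those counted lay to the same side within each list. Of 42 S phase genes 5 were lower and 0 higher, against 2.47% and 7.27% of all genes. Their median was -0.16, and 5 were above 0, against 58.4% of all genes. In UMIs per cell the list median became 0.037, against 0.23 over all genes. The largest difference was in E2f8, an E2F repressor gene, at -0.57, followed by Rad51ap1, a recombination gene, at -0.48. Of 54 G2M genes 15 were higher and 0 lower, against 7.27% and 2.47% of all genes. Their median was 0.18, and 42 were above 0. Aurka, the Aurora A kinase gene, was at 51.0, 69.8, 80.5 and 96.2 CPM, and Cenpa, the centromeric histone gene, at 98.6, 131, 155 and 182 CPM. Kif11 and Top2a, also on the list, were at -0.28 and -0.20, inside the 20% limit.

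The ranking was also made within bins of the phase scores, which are computed from the S phase and G2M lists, so the values of those lists are fixed in part by the binning. With the ends of the ranking taken within bins of S minus G2M score, 3 of the 54 G2M genes were higher and 4 lower. Their median was -0.079, and of all genes 5.53% were higher and 2.42% lower. In that comparison 38 of 40 histone genes were still lower, with a median of -0.77, and Id1 was at 2.29, Id3 at 2.03, Gadd45b at 1.23 and Junb at 1.49. Of the 565 higher genes 405 and of the 192 lower genes 148 were counted there too. Within bins of total UMIs, 396 of the 565 and 143 of the 192 remained, and the histone median was -0.76.

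**Figure D3:**
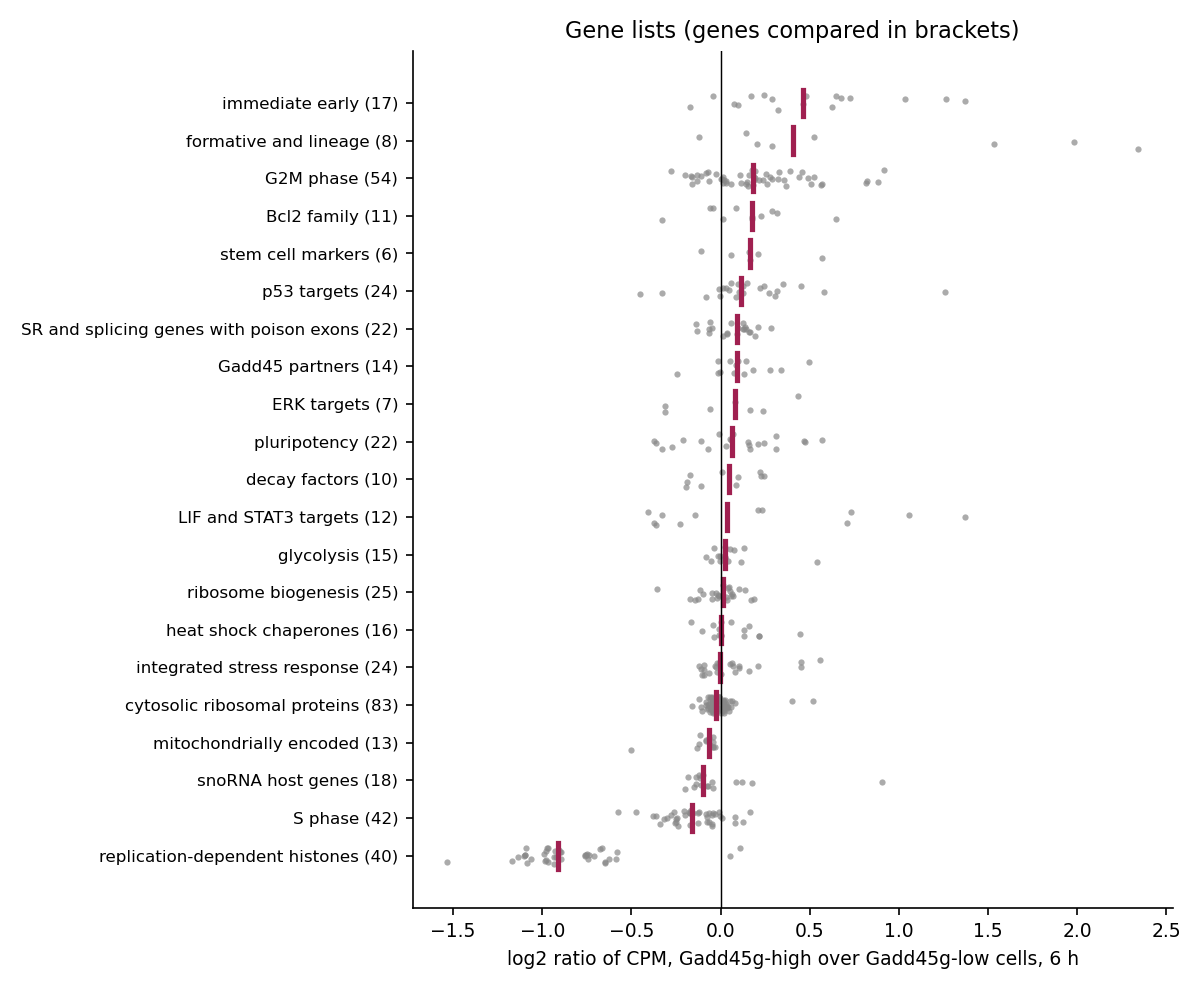
Log2 ratios of CPM in Gadd45g-high over Gadd45g-low cells at 6 h (x axis) for the members of each gene list with at least 10 CPM (rows, number of genes in brackets); each point is a gene and the vertical mark is the list median. Histone genes lie almost wholly to the left with a median of -0.91, immediate early genes to the right with a median of 0.46, and snoRNA host genes cluster just below 0.

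The medians of the stress and housekeeping lists lay between -0.065 and 0.094, and their counts are to be read against the 7.27% higher and 2.47% lower of all genes. Of 24 integrated stress response genes 3 were higher and 0 lower, with a median of -0.0043, and these included Ddit4 at 0.56 and Ddit3 at 0.45. Of 16 heat shock chaperones 1 was higher (Bag3 at 0.45), of 83 cytosolic ribosomal protein genes 2 (Rpl39l and Rpl10l), and of 22 SR and splicing genes with poison exons 0. Of 13 mitochondrially encoded genes 1 was lower, mt-Nd6 at -0.50. Of 7 ERK target genes 1 was higher, Phlda1 at 0.44, and of 25 ribosome biogenesis genes 1 was lower, Rrp1b at -0.35. Of 15 glycolysis genes 1 was higher, Hk2 at 0.54, and of 10 deadenylation and decay genes 0 differed.

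The host genes of small nucleolar RNAs, a list strongly raised by the drug, hardly differed along the ranking. Spliced transcripts of many, though not all, of these genes are degraded when translated. The 18 with at least 10 CPM had a median log2 ratio over control of 2.71 at 6 h. Of 18, 1 was higher in the Gadd45g-high cells and 0 lower, against 7.27% and 2.47% of all genes. The list median was -0.099, against 0.03 over all genes. In UMIs per cell the list median became 0.100, against 0.23 over all genes. Snhg1 was at 1789 CPM at the low and 1578 CPM at the high end, against 118 CPM in the control. The exception was Snhg4 at 0.91, a member that lay at 49.2 CPM in the control and at only 9.48 to 17.8 CPM along the ranking.

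To compare the ranking with the drug response, response genes were taken from the 3 h and control libraries, which share no cell with the ranking. Of the 7773 genes, 401 (5.16%) were at least 2-fold higher at 3 h than in the control and 23 (0.296%) were at least 2-fold lower. Of the 401 raised genes 60 (15.0%) were higher in the Gadd45g-high cells, against 7.27% of all genes, and 53 were lower, against 2.47% of all. Of the 401, 213 were above 0, with a median of 0.024, against 58.4% above 0 and a median of 0.03 over all genes. Histone genes made up 30 of the 53 lower ones. Without them, 60 of 369 raised genes were higher and 23 lower, with a median of 0.045. The raised genes were thus counted as differing more often than all genes in both directions, while their median lay near that of all genes.

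The raised genes with the highest ratios were Id3, Id2, Junb, Gadd45b and Fgfr2, and those with the lowest were Sox2ot, Hist1h2af, Hist1h2bm, Gm42743 and Hist2h2ac. Of the 23 lowered genes 8 were higher and 1 lower, against 7.27% and 2.47% of all genes, with a median of 0.11. With no floor 34 of 287 were higher, against 8.60% of all genes, and with a floor of 50 CPM 0 of 6 were. Of the 8 higher genes, Snhg4 had the largest ratio. Next came the transcription factor gene Tcf15 at 0.63 and Cemip2 at 0.61. The methionine adenosyltransferase gene Mat2a was at 0.48 and the endoplasmic reticulum stress gene Herpud1 at 0.40. Mat2a was at 30.1 and 41.8 CPM at the low and high ends, both far under the 288 CPM of the control, and Tcf15 was at 31.5 and 49.0 CPM against 231 CPM.

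**Figure D4:**
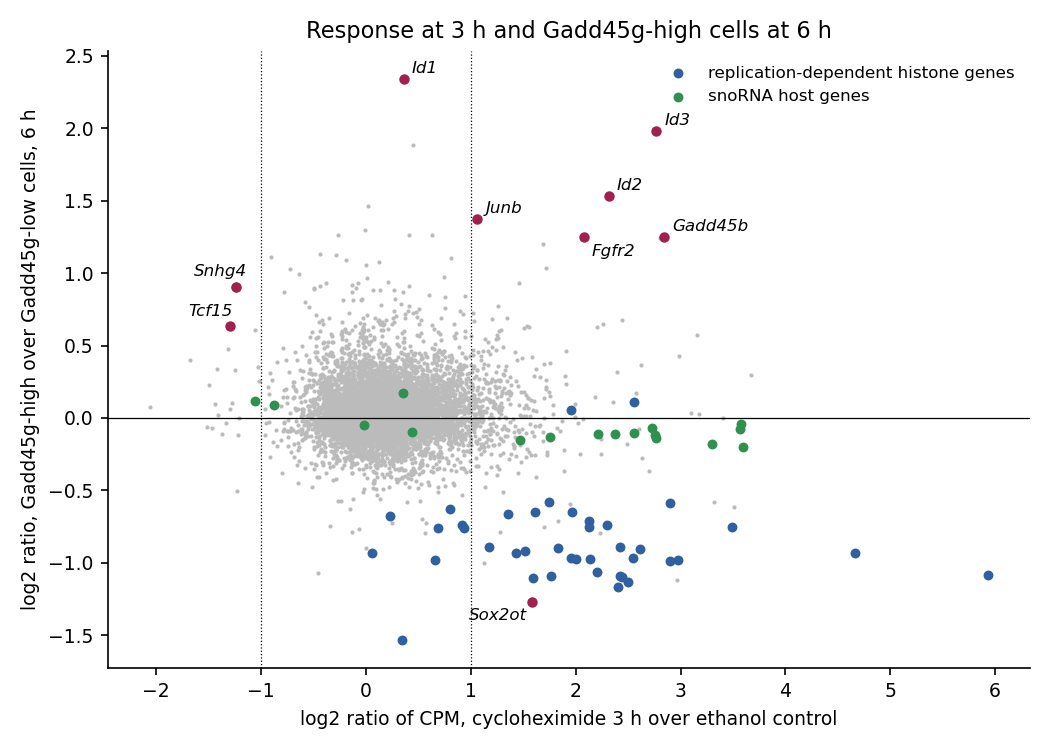
Log2 ratio of CPM at 3 h over control (x axis) and log2 ratio of Gadd45g-high over Gadd45g-low cells at 6 h (y axis), 1 grey point per gene with at least 10 CPM at 6 h; dotted lines mark 2-fold, and histone, snoRNA host and labelled single genes are coloured. To the right of the right dotted line Id3, Id2, Junb, Gadd45b and Fgfr2 lie above 0, snoRNA host genes just below 0, and most histone genes near -1.

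The ranking was repeated in the 3 h library, with 434 cells at each end. There every Gadd45g-low cell had 0 Gadd45g UMIs, as did cells outside it, so the group was picked from the tied cells by smallest total, and its median total was 39873 UMIs against 49713 for the Gadd45g-high cells. Of 7665 genes 346 were higher (4.51%) and 121 lower (1.58%). Among 7474 genes compared at both times, 174 were higher at both, which is 34.5% of the 504 higher at 6 h and 55.1% of the 316 higher at 3 h, while 4.23% of all were higher at 3 h. Lower at both were 64 genes, 38.1% of 168 and 56.6% of 113, while 1.51% of all were lower at 3 h. Across genes, which are not independent, the log2 ratios at 3 h and 6 h had a Pearson r of 0.62 and a Spearman rho of 0.49.

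The Id genes were again among the higher ones at 3 h, at 1.18 (1.13 to 1.24) for Id1, 1.18 for Id2 and 0.90 for Id3, and Fgfr2 was 2.38-fold higher. Gadd45b was at 0.49 (0.40 to 0.59) and Cdkn1c at 0.90. Of 40 histone genes 35 were lower, against 1.58% of all genes at 3 h, with a median of -0.69. Of 54 G2M genes 23 were higher, against 4.51% of all genes at 3 h, with a median of 0.25. In UMIs per cell the larger cells of the high end raised nearly every gene. Of 7665 genes 7531 were higher (98.3%) and 5 lower, with a median of 0.65. On that scale 4 histone genes were lower (median -0.059) and all 54 G2M genes higher (median 0.89). Ranked after thinning, 27 histone genes were lower, with a median of -0.42, and 23 G2M genes were higher. Of all genes 1.17% were lower and 3.34% higher there. With the ends of the ranking taken within bins of S minus G2M score, 29 histone genes were lower at 3 h, with a median of -0.40, and 0 G2M genes were higher.

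Some genes had unlike ratios at the 2 times, and the difference was not tested. Cdkn1a, level at 6 h, was at 0.75 (0.59 to 0.90) at 3 h, with 27.7 CPM at the low and 46.5 CPM at the high end, and 10 of 23 p53 targets were higher there, against 4.51% of all genes at 3 h. The low end at 3 h was the one picked by smallest total from tied cells. Without cells carrying primitive endoderm markers the Cdkn1a ratio at 3 h was 0.46. Junb, at 1.37 at 6 h, stood at 117 CPM in the low and 124 CPM in the high cells of the 3 h library, and its ratio there was 0.081 (-3.1e-05 to 0.16). Junb was thus high at both ends at 3 h and lower and uneven at 6 h.

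**Figure D5:**
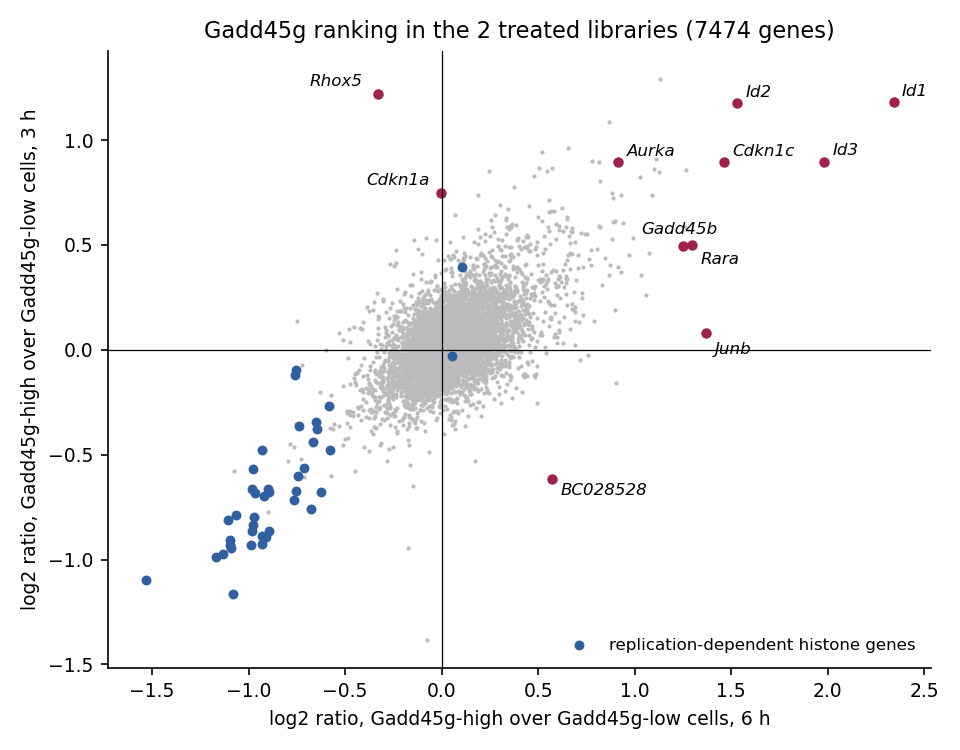
Log2 ratio of Gadd45g-high over Gadd45g-low cells at 6 h (x axis) and at 3 h (y axis), 1 point per gene compared at both times, with histone genes in blue and labelled genes in red. Id1, Id2 and Id3 lie in the upper right, histone genes in the lower left, and Cdkn1a on the vertical line at 0.75.

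Markers of other cell types moved with the ranking at low levels. The 7 primitive endoderm markers, all under 10 CPM, summed to 4.23, 5.79, 10.1 and 18.0 CPM, against 12.8 CPM in the control. Cells with 3 or more UMIs of them numbered 3 of 638 at the low and 33 of 638 at the high end. With all 59 such cells of the library left out, 543 genes were higher and 180 lower, of which 517 and 170 were among the 565 and 192. Of 7 markers of 2-cell-like cells 6 were at 0 UMIs in Gadd45g-low cells and 7 in Gadd45g-high cells. The 6 trophoblast markers summed to 18.9 CPM at the low and 32.8 CPM at the high end, with Elf5 at 0. Krt8, at 0.38, was at -0.012 without the cells carrying endoderm markers. The 7 fibroblast markers summed to 57.0 and 103 CPM, nearly all from Vim at 0.87, with Postn, Col3a1 and Lum at 0.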

How the data were processed

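Libraries of 1 control, 1 cycloheximide 3 h and 1 cycloheximide 6 h culture were analysed. The authors deposited unnormalised UMI counts for every gene in every barcode. They come from Cell Ranger 4.0.0 and mm10, per the submitters' processing notes. The annotation, and how reads of overlapping genes or strands were treated, are not given in the sources used here. Of 32285 gene identifiers 32158 matched GENCODE M21 (GRCm38), which gave the gene positions, and promoters came from RefSeq.

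Counts were summed over the cells of each group, expressed as CPM and compared as log2 ratios with a prior of 0.5 counts. Intervals are 95% exact conditional binomial (ratios), Poisson (levels) and Clopper-Pearson (shares) intervals, and cover counting error only. No doublets or free RNA were removed. Shares and phase scores used cells thinned to 15000 UMIs, with phases scored in scanpy 1.11.5 over the 3 libraries together. The gene comparison was tested on simulated counts before use.

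Members, gene lists and markers were chosen with earlier results of these data known. Named genes were Gadd45g, Gadd45b, Cdkn1a and Gadd45a, and the 12 highest and 12 lowest ratios among genes with at least 10 CPM. Also named were at most 4 members of each of 26 lists. The 5 highest and 5 lowest of the genes raised or lowered at 3 h were named too. Other genes named in the text (Jun, Dusp1, Bcl3, Pim3, Stat3, Pim1, Gbx2, Tfcp2l1, Lin28a, Nes, Polk, Phlda3, Mdm2, Bax, Pou5f1, Sox2, Dusp9, Smad7, Bambi and Skil) were picked from the lists after their values were seen, as were 2 further lists. Alternatives covered scaling (TMM in edgeR 4.0.16, R 4.3.3), ranking, cell limits and floors. Python 3.11.15, numpy 2.4.6, scipy 1.17.1 and pandas 2.3.3 were used.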

Additional observations from a re-analysis of the deposited data

Results flagged for a closer look

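For 2 genes the ends of the Gadd45g ranking differed in opposite directions in the 2 treated libraries, with both counting intervals excluding 0. BC028528 had a log2 ratio of 0.57 (0.35 to 0.80) at 6 h and -0.61 (-0.88 to -0.35) at 3 h. Its levels at the low and high ends were 8.90 and 13.3 CPM at 6 h, and 13.8 and 9.02 CPM at 3 h. Rhox5, an X-linked homeobox gene, had a log2 ratio of -0.33 (-0.49 to -0.17) at 6 h and 1.22 (1.00 to 1.45) at 3 h. Its levels at the low and high ends were 22.3 and 17.8 CPM at 6 h, and 12.6 and 29.4 CPM at 3 h. Neither gene changed in order along the ranking, and the difference between the libraries was not tested.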

How the results depend on the processing

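No paired analysis was possible because each condition had 1 library, and no library could be left out. The 565 higher and 192 lower genes at 6 h became 2163 and 66 in mean UMIs per cell, 999 and 373 with the outer 10% of cells at each end, 189 and 69 with the ranking cut at its middle, 107 and 51 with a floor of 50 CPM and 1890 and 782 with no floor. The 346 and 121 at 3 h became 7531 and 5, 323 and 589, 118 and 48, 73 and 26, and 1196 and 339 in the same order, and 147 were higher within bins of phase score. Of the raised genes, 60 of 401 were higher, against 145 of 401 in UMIs per cell, 25 of 401 with the ranking cut at its middle, 11 of 114 with the floor of 50 CPM, 288 of 1860 with no floor, 96 of 798 with response genes from 6 h and 141 of 1223 with response genes at 1.5-fold. Of the lowered genes, 8 of 23 were higher, against 5 with TMM factors, 5 within bins of total UMIs and 4 with the ranking cut at its middle. That count was 0 of 6 with the floor of 50 CPM, 34 of 287 with no floor, 27 of 123 with response genes from 6 h and 20 of 116 at 1.5-fold. Krt8 reversed to -0.012 without cells carrying endoderm markers, an alternative added after seeing the data. Among the 105 named genes, reversals were read only for those counted as higher or lower. No other such gene reversed under the 15 settings tried. In the other settings each of these counts stayed within 1.5 times its value. The causes were not tested, beyond the fewer genes or cells that a setting leaves. Depth limits genes near 10 CPM, whose counting intervals are the widest, and all intervals leave out variation between cultures.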

Other observations

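Some genes outside the lists, chosen after their values were seen, also differed between the ends of the Gadd45g ranking at 6 h. Higher were Efnb1, which encodes a membrane-bound ephrin ligand, at 10.7 CPM in Gadd45g-low and 24.6 CPM in Gadd45g-high cells, and Hes1, a Notch target and transcriptional repressor, at 21.5 and 43.8 CPM. Gli1, a target of Hedgehog signalling, had a log2 ratio of 0.72, and Sox11, a neural transcription factor gene, had 0.87. These 4 genes were also higher at 3 h, with log2 ratios of 1.09 for Efnb1, 0.82 for Hes1, 0.56 for Gli1 and 1.09 for Sox11. Within bins of phase score at 6 h they were at 1.08, 1.07, 0.70 and 0.69.

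The mitotic kinase gene Plk1 was at 1.11, and at 0.31 within bins of phase score. The laminin genes Lamb1 and Lama1, which encode basement membrane proteins, were at 1.13 and 0.78, and at 0.59 and 0.095 without the cells carrying endoderm markers.

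Lower were Tet1, which encodes an oxidase of methylated cytosine, at 217 CPM in Gadd45g-low and 155 CPM in Gadd45g-high cells, the transcription factor gene Sp1 at -0.56 and Dido1 at -0.79. The nuclear noncoding RNA Malat1 was at 3763 CPM in Gadd45g-low and 2778 CPM in Gadd45g-high cells, a log2 ratio of -0.44 that was -0.11 at 3 h.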
